A study of Mus musculus with 3 samples.

Results

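The 7 genes that encode the receptor subunits for IL-7, IL-2, IL-15 and IL-18 (Il7r, Il2ra, Il2rb, Il2rg, Il15ra, Il18r1 and Il18rap) were followed through early mouse T cell development by 10x single-cell RNA sequencing. They were taken by symbol from the raw count matrices, in which all 7 were listed in each of the 3 runs, out of 27734 genes listed in all 3. Values came from 21879 cells that had 500 to 5000 genes and at most 7% mitochondrial UMIs, of 23283 deposited (11 fell outside these limits in run 1, 35 in run 2 and 1358 in run 3). Each run was 1 library from 4 pooled thymi of C57BL/6 mice labelled week 6, depleted of CD4 and CD8 expressing cells and sorted without B220, CD11b, CD11c, NK1.1 or TCRβ. Run 1 held total double-negative (DN) and TCRγδ+ thymocytes, run 2 DN1 and DN2 cells that lacked TCRγδ, and run 3 a mixture of separately sorted DN1 and DN2, DN3 and TCRγδ+ cells. No genotype or treatment was compared, and no sort was repeated, so the comparisons below are between kinds of cell inside the runs.

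Receptors for IL-7, IL-2 and IL-15 share the common gamma chain, the product of Il2rg, and signal through JAK1, JAK3 and STAT5. IL-7 binds the Il7r product paired with the gamma chain and supports the survival of early thymocytes. IL-2 and IL-15 share the signalling chain encoded by Il2rb, to which Il2ra (CD25) or Il15ra adds high affinity for its own cytokine, and CD25 on the surface is also used with CD44 to define the DN stages. IL-18 binds the Il18r1 product, and Il18rap encodes the accessory chain needed for a signal through MyD88, a chain best known from T and NK cells that make interferon gamma.

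Members lie in pairs at 2 places in the genome (GRCm38 coordinates from the GENCODE annotation). Il2ra (2:11642807-11693193, + strand) is followed after 12096 bases by Il15ra (2:11705290-11734317, + strand), and Il18r1 (1:40465552-40500854, + strand) is followed after 14507 bases by Il18rap (1:40515362-40551705, + strand). Il7r (15:9505788-9530176, - strand), Il2rb (15:78479256-78495271, - strand) and Il2rg (X:101264378-101268255, - strand) stand apart from them. The 250 bases before the annotated start are shown for Il18r1 and Il18rap, neighbours that were both higher in the Trac than in the Trdc gate described below. A window of that length is also shown for Il2ra, which was lower there. It ends at 11642791, short of the GENCODE start at 11642807. The windows were read from the RefSeq promoter table for GRCm38.p6, 5′ to 3′ along the strand of the gene, with the letters GGAAGT (or ACTTCC on the other strand), a core recognised by ETS factors, in capitals.
Il18r1, chr1:40465302-40465551, + strand: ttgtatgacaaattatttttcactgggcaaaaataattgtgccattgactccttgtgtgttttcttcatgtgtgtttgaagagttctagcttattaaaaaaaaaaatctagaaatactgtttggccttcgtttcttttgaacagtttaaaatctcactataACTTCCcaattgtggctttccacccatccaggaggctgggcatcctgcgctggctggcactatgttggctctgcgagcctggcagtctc
Il18rap, chr1:40515112-40515361, + strand: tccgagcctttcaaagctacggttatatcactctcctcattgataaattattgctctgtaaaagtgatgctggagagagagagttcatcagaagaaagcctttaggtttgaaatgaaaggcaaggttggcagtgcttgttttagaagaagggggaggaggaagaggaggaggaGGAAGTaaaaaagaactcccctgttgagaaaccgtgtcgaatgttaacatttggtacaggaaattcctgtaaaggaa
Il2ra, chr2:11642542-11642791, + strand: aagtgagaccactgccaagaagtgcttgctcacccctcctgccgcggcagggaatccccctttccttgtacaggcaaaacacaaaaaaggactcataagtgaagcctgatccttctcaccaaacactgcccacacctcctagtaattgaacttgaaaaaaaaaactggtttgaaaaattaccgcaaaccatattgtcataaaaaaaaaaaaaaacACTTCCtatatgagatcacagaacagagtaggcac
Each of the 3 windows held 1 match to this core, which was found in 19.99% of the 27025 promoter windows of that length in the table. None held TGTGGT, a Runx core (14.2% of windows), or TTCNNNGAA, a STAT core (7.18% of windows), on either strand. Of the members not shown, the windows of Il7r (1 match) and not those of Il2rg and Il15ra held the ETS core, Il7r held the STAT core and Il2rg the Runx core. Il2rb had no window in the promoter table. The table lists 3 windows for Il18r1, of which the one at its annotated start is shown. These matches describe the letters of the windows and say nothing of binding.

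Cells were placed in gates by UMIs of genes that are not members, so the levels of the members played no part in the placing. Stage gates were the Kit/Flt3/Cd34 gate (any of these without later genes), the Cpa3 gate, the gate with Cpa3 together with Rag1, Rag2 or Ptcra, and the gates with Rag1, Rag2 or Ptcra but no Cpa3, called resting or cycling by the absence or presence of Mki67 or Top2a. A Cd8b1 gate held cells with Cd8b1 and no Cpa3, and the sorts of runs 2 and 3 did not include the DN4 stage. The Trdc gate and the Trac gate held cells with transcripts of the TCRδ or TCRα constant region and no UMI of the immature genes. Numbers of cells in runs 1, 2 and 3 were 40, 154 and 208 in the Kit/Flt3/Cd34 gate, 614, 2723 and 1609 in the Cpa3 gate, and 292, 985 and 776 in the Cpa3 and Rag/Ptcra gate. They were 1046, 823 and 948 in the resting Rag/Ptcra gate, 948, 581 and 1022 in the cycling one, 1349, 58 and 124 in the Cd8b1 gate, 496, 654 and 600 in the Trdc gate, and 11, 1698 and 694 in the Trac gate. The Kit/Flt3/Cd34 gate did not hold the markers of the earliest progenitors alone, since its summed cells also had Bcl11b at 208 to 441 CPM and Trdc at 400 to 660 CPM. Run 2 held 654 cells in the Trdc gate and 1698 in the Trac gate although TCRγδ+ and TCRβ+ cells had been removed by the sort.

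Levels are given as UMIs of a gene per 1000000 UMIs (CPM) summed over the cells of a gate in 1 run, and shares of cells with a UMI after each cell was thinned to 2000 UMIs. Median UMIs per cell were 5989.5, 4844 and 8507 in runs 1, 2 and 3. Cell barcodes were shared by 72 cells of runs 1 and 2, 3 of runs 1 and 3 and 0 of runs 2 and 3. Run 3 stood apart for Il7r, which was 1.93 to 2.90 times its level in run 2 in 8 of 8 gates. Il18r1 was also higher in run 3 in 8 of 8 gates (1.02 to 2.74 times). Il2rg was 0.801 to 1.13 times its level in run 2, and the other members were higher in run 3 in 4 to 6 of 8 gates. The sort differed between runs, as did the kit and the software version, and these cannot be told apart here, so levels are compared within runs. A B cell gate of 410 cells in run 3 served as the background for subunits that B cells largely lack. It was not free of other cells, since 19 of its cells had the NK receptor and 9 the type 17 programme described below, and its myeloid markers, among them the MHC class II genes that B cells also express, summed to 7608 CPM. Marker genes of B cells summed to 7.57 to 78.4 CPM in the 8 gates, against 6519 CPM in the B gate, and Ncr1 with Eomes, which mark NK cells, summed to at most 27.0 CPM. Myeloid markers summed to 24.6 to 119 CPM in the 8 gates, and both of these maxima were in the Kit/Flt3/Cd34 gate. The 6 NK receptor genes used below summed to 31.9 to 441 CPM over the gates of run 1, 214 to 4220 CPM in run 2 and 196 to 2821 CPM in run 3, and the 7 type 17 genes to at most 179 CPM, against 237 CPM and 197 CPM for these lists in the B gate.

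Il7r was detected in every gate of every run and was highest in the Trac gate of runs 2 and 3. Its level there was 486 CPM (95% Poisson interval 468 to 504) in run 2 and 1198 CPM (1167 to 1230) in run 3, against 117 and 226 CPM in the Trdc gate of those runs (57.2 CPM in run 1). The resting Rag/Ptcra gate held 50.1, 91.9 and 210.1 CPM in runs 1, 2 and 3, the Cpa3 and Rag/Ptcra gate 48.9, 65.6 and 190 CPM, the Cpa3 gate 69.9, 78.7 and 194 CPM, and the Kit/Flt3/Cd34 gate 74.3, 80.6 and 197 CPM. The lowest level in runs 2 and 3 was that of the cycling Rag/Ptcra gate, at 31.5, 50.4 and 138 CPM. The order of the 8 gates was the same in runs 2 and 3. The counting interval of the Kit/Flt3/Cd34 gate overlapped those of its neighbours in that order, the resting Rag/Ptcra and Cpa3 gates, in all 3 runs. In run 1 the Cpa3 gate stood above the resting Rag/Ptcra gate (69.9 against 50.1 CPM), with intervals apart. The Cd8b1 gate held 16.8 CPM in run 1, where it was the lowest gate, and 175 and 340 CPM in runs 2 and 3. In these 2 runs 37.9% of its cells expressed genes of the mature programmes described below, against 0.964% in run 1, and without such cells Il7r in the Cd8b1 gate was at 87.4 and 99.3 CPM.

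Il2rg, the chain shared by these receptors, was found in all gates and was highest in the Trac gate. It ranged from 67.0 to 144 CPM over the 15 stage gate sums, from the cycling Rag/Ptcra gate of run 1 to the resting one of run 2. The Trdc gate held 113, 178 and 187 CPM in runs 1, 2 and 3, and the Trac gate 307 and 309 CPM in runs 2 and 3. At 2000 UMIs per cell, 14.0% to 26.4% of stage gate cells had an Il2rg UMI, against 47.4% and 43.8% of Trac gate cells. B gate cells had Il2rg in 27.0%, so no gate served as a background for this gene.

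Il2ra was highest in the resting Rag/Ptcra gate and nearly absent from the Trac gate. Among the stage gates it was lowest in the Kit/Flt3/Cd34 gate in runs 2 and 3 and in the cycling Rag/Ptcra gate in run 1. It was at 306, 388 and 596 CPM in the resting Rag/Ptcra gate of runs 1, 2 and 3, 226, 292 and 388 CPM in the Cpa3 and Rag/Ptcra gate, 252, 236 and 279 CPM in the Cpa3 gate, and 184, 139 and 140 CPM in the Kit/Flt3/Cd34 gate. The resting Rag/Ptcra gate was the highest of the gates in all 3 runs, and its interval did not overlap that of the cycling Rag/Ptcra gate (114, 293 and 397 CPM) in any of them. The Trdc gate held 143, 155 and 106 CPM and the Trac gate 17.5 and 11.99 CPM. Cells with an Il2ra UMI made up 44.5% (95% exact binomial interval 41.4% to 47.5%), 49.7% (46.2% to 53.2%) and 63.0% (59.8% to 66.0%) of the resting Rag/Ptcra gate, and 3.12% (2.35% to 4.06%) and 1.44% (0.693% to 2.63%) of the Trac gate. Before thinning the shares were 62.3%, 70.7% and 87.9% of the resting Rag/Ptcra gate, and 4.36% and 7.49% of the Trac gate. The B gate of run 3 had an Il2ra UMI in 9.58% of cells, above the Trac gate, so the B gate gave no background for this gene. Whether the few Il2ra UMIs of the Trac gate were background was not tested. These intervals, like all intervals on shares and levels here, cover counting error only.

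Il2rb was highest in the Trac gate, where Il2ra was lowest. The Trac gate held 343 CPM (328 to 359) and 328 CPM (312 to 345) in runs 2 and 3, and the Trdc gate 11.99, 37.3 and 61.4 CPM in runs 1, 2 and 3. The Kit/Flt3/Cd34 gate was next to the Trdc gate, at 17.5, 45.3 and 83.8 CPM, and their intervals were apart in 1 of 3 runs only. The other stage gates held 0.95 to 26.1 CPM, the lowest of them the Cpa3 and Rag/Ptcra gate at 0.95, 5.74 and 5.03 CPM. At 2000 UMIs per cell, 47.9% and 49.0% of Trac gate cells had an Il2rb UMI, against 2.42%, 7.19% and 10.6% of the Trdc gate and 1.72% (0.694% to 3.51%) of the B gate. Before thinning these shares were 59.5% and 78.7% of the Trac gate, 4.84%, 11.8% and 24.7% of the Trdc gate, and 6.59% of the B gate. Shares in run 3's stage gates other than the Kit/Flt3/Cd34 gate (15.9%) were 0.902% to 3.30%, with intervals that overlapped that of the B gate, and were not told apart from it at this depth.

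Il15ra, which presents IL-15, was at the edge of detection in all gates. It was at 2.31 to 12.6 CPM (median 4.90) over the 23 sums of cells, and at most 2.87% of the cells of any stage gate had a UMI. The resting Rag/Ptcra gate was the highest gate in run 3, at 12.6 CPM, and the next highest in run 2, at 6.33 CPM, but neighbours in the order of gates mostly overlapped.

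Il18r1 and Il18rap were both highest in the Trac gate and differed in the Trdc gate. Il18r1 was at 140 and 253 CPM in the Trac gate of runs 2 and 3, and at 1.93, 50.7 and 51.7 CPM in the Trdc gate of runs 1, 2 and 3. The stage gates held 0.113 to 8.74 CPM in run 1, 5.21 to 21.7 CPM in run 2 and 7.73 to 32.6 CPM in run 3. The cycling Rag/Ptcra gate was lowest and the Kit/Flt3/Cd34 gate highest each time. In run 1 this order rested on 1 UMI in the cycling gate and 2 UMIs in the Kit/Flt3/Cd34 gate. Il18r1 was also high in the Cd8b1 gate of runs 2 and 3, at 36.1 and 98.8 CPM against 0.49 CPM in run 1, and stood there at 20.6 and 4.36 CPM without cells of the mature programmes. Il18rap was at 48.8 and 99.98 CPM in the Trac gate, and at 4.25 and 7.50 CPM in the Trdc gate of runs 2 and 3, inside the range of the stage gates of those runs (0.372 to 20.7 CPM). In run 1 the Trdc gate had no Il18rap UMI, which allows up to 1.16 CPM. At 2000 UMIs per cell, Il18r1 was found in 22.3% and 34.0% of Trac gate cells, in 0.605%, 9.79% and 8.24% of Trdc gate cells, and in 0.983% of B gate cells. For Il18rap the shares were 10.4% and 17.4% of the Trac gate and 0.246% of the B gate.

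**Figure D1:**
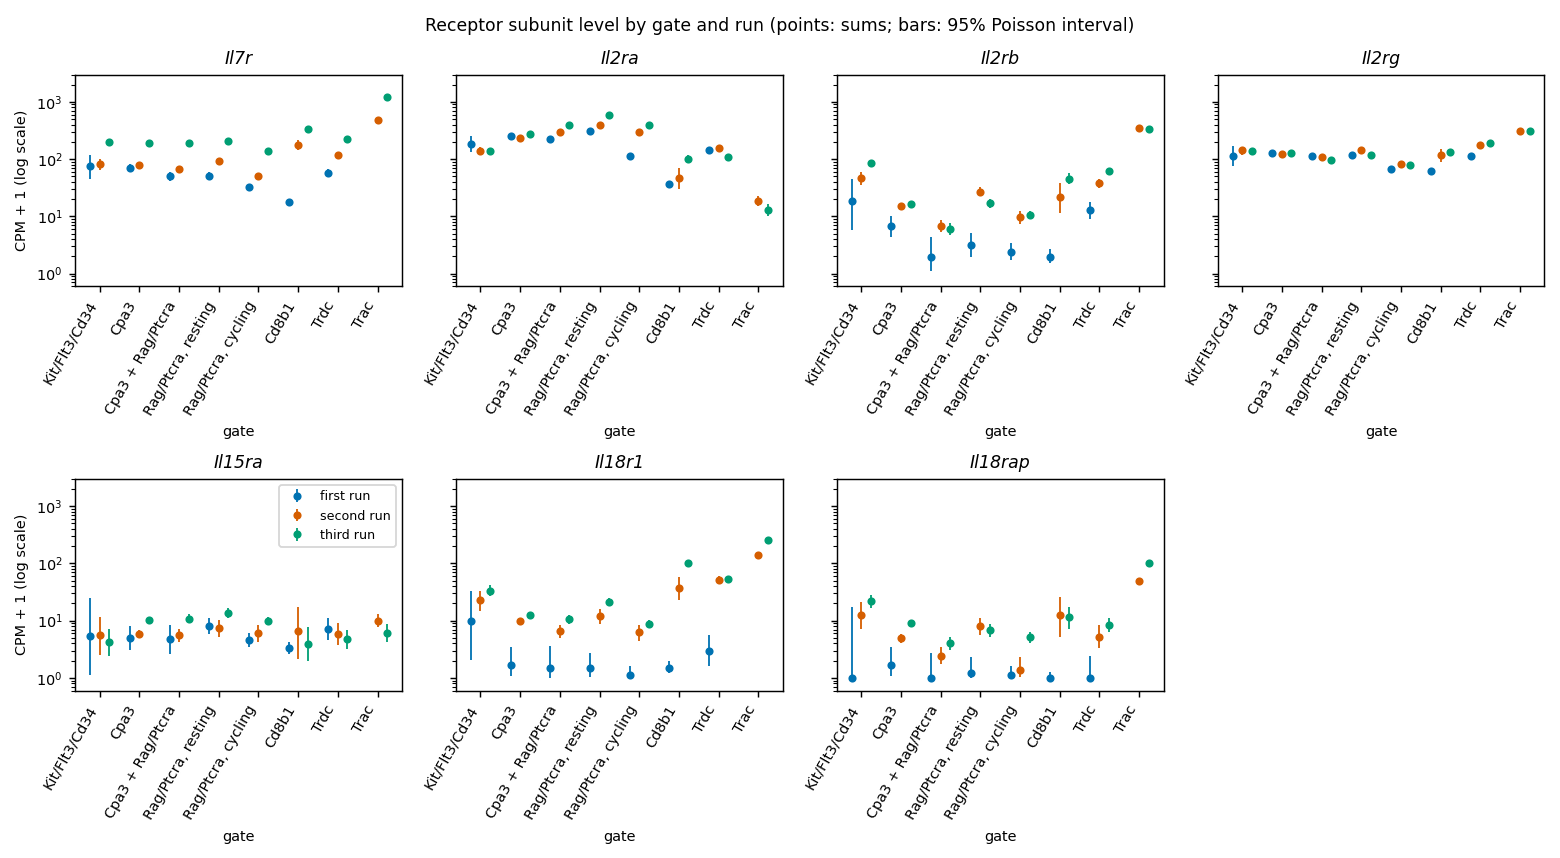
Level of the 7 subunits in each gate, as CPM + 1 on a logarithmic axis, with 1 point and colour per run and bars for the exact Poisson 95% interval of the count. Il7r, Il2rb, Il2rg, Il18r1 and Il18rap are highest in the Trac gate, Il2ra is lowest there (17.5 and 11.99 CPM), and run 3 lies above the other runs for Il7r.

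Differences between gates were tested across all genes on the sums per gate and run, with the run as a block. A log2 fold change is the gate named first over the other, and adjusted p-values are those of edgeR's quasi-likelihood test with Benjamini-Hochberg adjustment over 11474 genes. These p-values do not measure the spread of the named difference alone. They rest on the differences left between unlike runs over all 8 gates, with dispersions shared over genes (13 residual and 8.83 prior degrees of freedom). For the programmes below these were 2 and 17.5. Each run was a different sort and a single library, and the Trac gate entered in 2 runs only. Every call was thus read beside the values within the runs.

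In the Trdc gate against the resting Rag/Ptcra gate, 3 of 7 members were called, in a comparison that called 26% of all genes tested (14.3% higher and 11.7% lower). Il18r1 was higher (log2 fold change 1.73, SE 0.26, adjusted p = 4.34e-05) and so was Il2rb (1.42, SE 0.35, adjusted p = 0.00456), while Il2ra was lower (-1.63, SE 0.27, adjusted p = 1.39e-04). The median over the members was 0.19 and that over all genes -0.00. Il2ra was lower in 3 of 3 runs, by 1.09, 1.32 and 2.49 on the log2 scale. The Il2rb log2 ratio was 2.49, 0.52 and 1.96 in runs 1, 2 and 3, and its intervals overlapped in run 2. That of Il18r1 was 2.22 and 1.36 in runs 2 and 3, and its intervals overlapped in run 1, with 5 and 2 UMIs. For the subunits that were not called, the log2 fold changes were 0.32 for Il2rg (adjusted p = 0.112), 0.19 for Il7r (adjusted p = 0.708), -0.95 for Il15ra (adjusted p = 0.0623) and -0.12 for Il18rap (adjusted p = 0.881). Without run 3 the Il2rb call was lost (log2 fold change 0.97, adjusted p = 0.0721), and without run 1 Il2rg (0.45, adjusted p = 0.00832) and Il15ra (-1.29, adjusted p = 0.0342) passed the test.

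Cells with NK receptor or type 17 genes also fell in the stage gates, at 0.633% to 10.0% of a gate in run 1, 16.0% to 39.0% in run 2 and 9.81% to 37.9% in run 3, the Cd8b1 gate included. When they were removed from those gates but not from the Trdc gate, a setting chosen after seeing the data, all 7 members passed the test between the Trdc and the resting Rag/Ptcra gates. The log2 fold changes were then 3.87 for Il18r1, 3.57 for Il2rb, 1.82 for Il18rap (adjusted p = 0.0112), 0.54 for Il7r, 0.43 for Il2rg, -1.05 for Il15ra and -1.69 for Il2ra. In the resting Rag/Ptcra gate of run 3, Il2rb was at 2.84 CPM without these cells and 15.8 CPM with them, and Il18r1 at 2.84 and 20.1 CPM. Low levels of Il2rb, Il18r1 and Il18rap in the stage gates thus moved with such cells, and removing them from the resting gate alone widens the differences of these genes by construction.

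Between the Trac and the Trdc gates 6 of 7 members were called, against 42.7% of all genes (22.3% higher and 20.4% lower), with a median over the members of 2.15 and over all genes of 0.02. Il18rap (log2 fold change 3.93, SE 0.33), Il2rb (2.94, SE 0.32), Il7r (2.4996, SE 0.34), Il18r1 (2.15, SE 0.22) and Il2rg (1.15, SE 0.16) were higher in the Trac gate, and Il2ra was lower (-3.07, SE 0.38), with adjusted p-values of 5.09e-09 to 6.23e-06. Il15ra was not called (0.83, SE 0.42, adjusted p = 0.114). Each of the 6 had the same direction with intervals apart in both runs that had a Trac gate, with log2 ratios of 2.05 and 2.41 for Il7r, 3.20 and 2.42 for Il2rb, and -3.15 and -3.14 for Il2ra. For Il18r1 they were 1.47 and 2.29, for Il18rap 3.52 and 3.74, and for Il2rg 0.79 and 0.72. The fitted log2 fold changes of Il7r, Il18rap and Il2rg lay above the ratios of both runs. The fit also used the Trdc sum of run 1, which has no Trac partner, and TMM factors. Leaving out any 1 run kept all 6 calls, where the lone Trac sum left without run 2 or 3 is assumed to vary like the other gates. Of the cells in the Trac gate 20.3% in run 2 and 16.9% in run 3 stood exactly at the UMI limit of the gate.

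From the Kit/Flt3/Cd34 to the Cpa3 gate, where 2.51% of genes were called (0.933% higher and 1.58% lower), Il2rb fell by 2.05 on the log2 scale (SE 0.36, adjusted p = 0.00267), Il18rap fell by 1.39 (SE 0.37, adjusted p = 0.0435) and Il18r1 fell by 1.37 (SE 0.30, adjusted p = 0.0131). Intervals of these 3 members were apart in runs 2 and 3 and overlapped in run 1. Ncr1 with Eomes and the NK receptor genes were lower in the Cpa3 gate as well. Myeloid and B cell markers were not lower in every run. Ncr1 with Eomes summed to 4.37, 5.43 and 27.0 CPM in the Kit/Flt3/Cd34 gate of runs 1, 2 and 3 and to 0, 0.314 and 2.29 CPM in the Cpa3 gate, and the NK receptor genes to 441, 748 and 754 CPM against 372, 530 and 419 CPM. Myeloid markers summed to 39.3, 119 and 104 CPM against 52.3, 61.6 and 51.5 CPM. B cell markers summed to 30.6, 35.3 and 52.4 CPM against 48.3, 41.1 and 44.0 CPM. The part of such other cells in the result was not tested beyond the removal given below. All 3 calls were lost in DESeq2 (adjusted p = 0.0717, 0.305 and 0.333), without run 2 (adjusted p = 0.141, 0.311 and 0.310) and without run 3 (adjusted p = 0.109, 0.495 and 0.233). Il2ra had a log2 fold change of 0.93 (SE 0.31, adjusted p = 0.127), with intervals apart in runs 2 and 3. It passed without run 1 (adjusted p = 0.0282) and without the filter on genes. When the cells with NK receptor or type 17 genes were removed, Il2rb alone of the 7 remained called (-2.38), with Il18r1 at -0.98 (adjusted p = 0.462) and Il18rap at -1.29 (adjusted p = 0.420).

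From the Cpa3 and Rag/Ptcra gate to the resting Rag/Ptcra gate, where 21.6% of genes were called (9.96% higher and 11.6% lower), Il2rb (log2 fold change 1.87, SE 0.42, adjusted p = 0.00260), Il18rap (1.48, SE 0.42, adjusted p = 0.0147) and Il18r1 (1.04, SE 0.29, adjusted p = 0.0118) rose. Intervals were apart in runs 2 and 3 for Il2rb, in run 2 only for Il18rap, and in runs 2 and 3 for Il18r1. None of the 3 remained called without the cells of the mature programmes, at 0.72 (adjusted p = 0.457), 0.53 (adjusted p = 0.629) and 0.12 (adjusted p = 0.902), nor without run 2 (adjusted p = 0.130, 0.207 and 0.156). Il18r1 was also lost without run 3 (adjusted p = 0.191), and Il2rg, at 0.27 with all runs, passed without run 1 (0.36, adjusted p = 0.0317). Il2ra was higher with intervals apart in 3 of 3 runs, by a log2 ratio of 0.44, 0.41 and 0.62, but did not pass the test (0.50, SE 0.26, adjusted p = 0.181). It passed only without the filter on genes.

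In the cycling against the resting Rag/Ptcra gate 33.6% of genes were called (16.9% higher and 16.7% lower). Of the members 5 fell as shares of UMIs and none rose, with a median of -0.68 over the members and -0.08 over all genes. Median UMIs per cell were 8921, 8961 and 10442 in the cycling gate of runs 1, 2 and 3, against 3225, 4424 and 7130 in the resting gate. A lower share of UMIs thus need not mean fewer UMIs per cell, which were not compared. Il2rg, at -0.67 (SE 0.15, adjusted p = 0.00130), was lower with intervals apart in 3 of 3 runs, and so was Il2ra, at -0.68 (SE 0.26, adjusted p = 0.0468). Il7r, lower in 3 of 3 runs too, did not pass the test (-0.64, SE 0.31, adjusted p = 0.116). It passed without run 1 (-0.71, adjusted p = 3.54e-04) and without the filter on genes. Il2ra was not called without run 1 (-0.50, adjusted p = 0.0938) or run 2 (-0.89, adjusted p = 0.120), nor was Il2rg without run 2 (-0.68, adjusted p = 0.0624). Il18r1 (-1.24, adjusted p = 0.00273), Il18rap (-1.21, adjusted p = 0.0268) and Il2rb (-1.06, adjusted p = 0.0398) were not called without the cells of the mature programmes (adjusted p = 0.576, 0.762 and 0.383). Il18r1 was lost without run 3 (adjusted p = 0.0888), and Il18rap and Il2rb without run 2 (adjusted p = 0.449 and 0.401). Intervals were apart in runs 2 and 3 for Il18r1 and Il2rb, and in run 2 only for Il18rap.

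**Figure D2:**
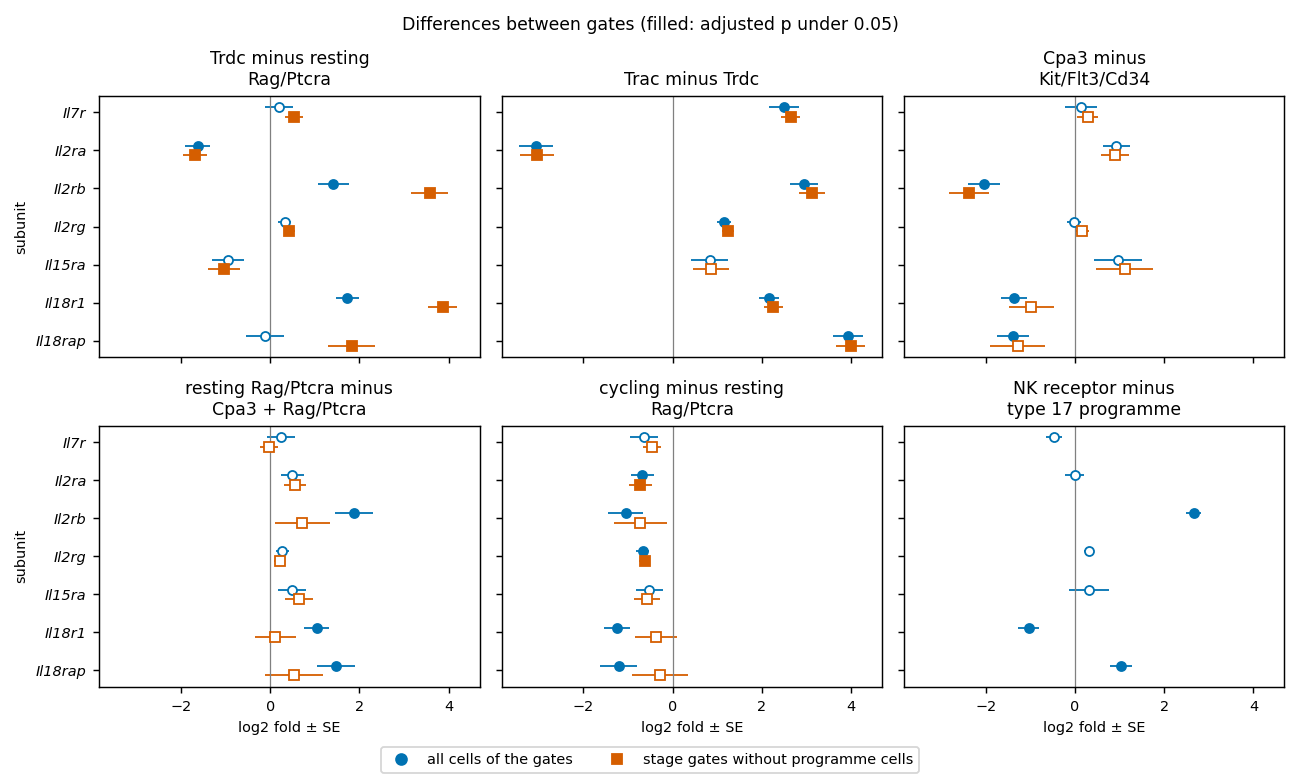
Log2 fold change of the 7 subunits in the 6 comparisons, with bars of 1 SE, for all cells of the gates (circles) and after cells with NK receptor or type 17 genes were removed from the stage gates (squares, which the comparison of the programmes does not have); filled symbols have an adjusted p under 0.05. The Il2rb, Il18r1 and Il18rap calls between the Rag/Ptcra gates are open symbols in the other setting. Between the Trac and Trdc gates 6 members are called in both settings. No cells were removed from the Trac and Trdc gates, so this does not show whether those calls depend on such cells.

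Within the Trdc and Trac gates, cells were divided by at least 2 of 6 NK receptor and effector genes (Klrd1, Klrk1, Klrb1c, Nkg7, Ccl5, Xcl1) or at least 2 of 7 type 17 genes, among them Il17re, Il23r, Ccr6, Il1r1, Il17a and Il17f. The NK receptor programme held 1330 and 557 Trac gate cells and 87 and 79 Trdc gate cells of runs 2 and 3, and the type 17 programme 159 and 97 Trac gate cells and 67 and 69 Trdc gate cells. Il2rb and the chains of the IL-18 receptor differed between the programmes. Il2rb was at 448 and 418 CPM in Trac gate cells with the NK receptor programme and at 59.1 and 92.8 CPM in those with the type 17 programme. The Trdc gate had the same order, at 143 and 193 CPM with the NK receptor programme and 34.4 and 73.4 CPM with the type 17 programme. Il18r1 ran the other way, at 99.7 and 197 CPM in Trac gate cells of the NK receptor programme against 252 and 422 CPM in those of the type 17 programme. In the Trdc gate Il18r1 was at 60.1 and 57.3 CPM against 198 and 275 CPM. Its partner Il18rap was at 52.8 and 114 CPM in Trac gate cells of the NK receptor programme and at 33.8 and 60.5 CPM in those of the type 17 programme. In the Trdc gate Il18rap did not have this order, at 6.93 and 22.0 CPM with the NK receptor programme and 21.5 and 20.98 CPM with the type 17 programme, with overlapping intervals in both runs.

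Summed over programmes in both gates, 3 of 7 members were called, against 15.9% of 10853 genes (8.9% higher and 7% lower) tested by edgeR's quasi-likelihood test. In runs 2 and 3 Trac gate cells were 1330 of 1417 and 557 of 636 NK receptor cells, but 159 of 226 and 97 of 166 type 17 cells. The part of this unequal makeup in the pooled values was not tested. Il2rb was higher in the NK receptor programme (log2 fold change 2.66, SE 0.16, adjusted p = 2.12e-10), with log2 ratios of 2.98 and 2.13 in runs 2 and 3 when the gates were pooled. Il18rap was higher too (1.03, SE 0.24, adjusted p = 0.00401), with intervals apart in run 3 only, and Il18r1 was lower (-1.04, SE 0.23, adjusted p = 0.00320), with log2 ratios of -1.32 and -1.11. Il7r was at 395 and 1081 CPM in Trac gate cells of the NK receptor programme and 776 and 1602 CPM in those of the type 17 programme. With the gates pooled it was lower with intervals apart in runs 2 and 3 (log2 ratios -0.87 and -0.46). It did not pass the test (-0.47, SE 0.18, adjusted p = 0.0779). Il2rg (0.30, SE 0.11, adjusted p = 0.0769), Il2ra (-0.01, SE 0.21, adjusted p = 0.985) and Il15ra (0.31, SE 0.45, adjusted p = 0.733) were not called. With 1 of these 2 runs left out no test was possible, and the log2 fold changes without runs 2 and 3 were 2.25 and 3.12 for Il2rb, 1.16 and 0.79 for Il18rap, and -0.995 and -1.18 for Il18r1. The calls of Il18r1 and Il18rap, but not that of Il2rb, were lost in DESeq2 (adjusted p = 0.502 and 0.212).

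Trdc gate cells with neither programme, which were 485, 496 and 450 cells in runs 1, 2 and 3, held Il2ra at 145, 173 and 112 CPM and Il2rb at 9.9, 18.6 and 37.0 CPM. Trdc gate cells of the type 17 programme held Il2ra at 43.0 and 62.9 CPM and Il7r at 379 and 665 CPM, against 84.5 and 160 CPM of Il7r in cells with neither programme in those runs. Trac gate cells with neither programme (197 and 37 cells) had Il2ra at 16.2 and 7.14 CPM and Il18r1 at 234 and 311 CPM. These Il18r1 levels lay between those of Trac gate cells with the NK receptor and the type 17 programme.

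**Figure D3:**
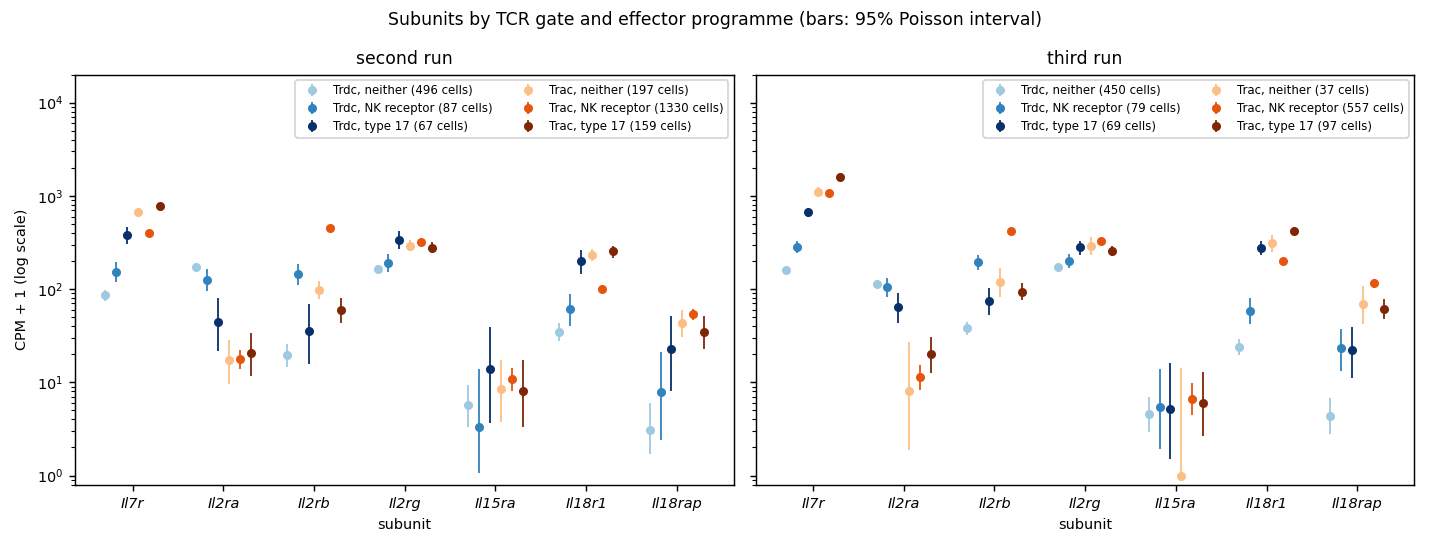
Level of each subunit (CPM + 1 on a logarithmic axis) in cells with the NK receptor programme, the type 17 programme or neither, by colour for the Trdc (blue) and Trac (orange) gates, with exact Poisson 95% intervals and 1 panel for each of runs 2 and 3. Il2rb is highest with the NK receptor programme and Il18r1 with the type 17 programme in both gates and both runs. In the Trac gate Il18r1 is also higher with neither programme than with the NK receptor programme. Il2ra stays at or under 19.7 CPM in all 3 groups of the Trac gate.

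Detection of subunits in the same cell was counted after thinning, and set beside the product of the single shares, the value that independent detection within a gate would give. The 23 intervals of each pair, at 95%, were read without adjustment. Il7r and Il2rg, the chains of the IL-7 receptor, were found together in 0.519% to 37.5% of cells, and the product lay inside the interval in 23 of 23 gates and runs. In the Trac gate they shared 27.0% and 37.5% of cells of runs 2 and 3, with products of 27.0% and 36.9%. Il2rb and Il2rg, the signalling pair for IL-2 and IL-15, shared 23.1% and 21.3% of Trac gate cells (products 22.7% and 21.5%) and lay above the product in 3 of 23 gates and runs. All 3 chains of the high-affinity IL-2 receptor were found together in at most 0.806% of the cells of any gate, and Il15ra with Il2rb and Il2rg in at most 0.412%. These limits hold for 2000 UMIs per cell. At 4000 UMIs they were 3.30% and 0.722%, and without thinning 4.33% and 2.59%.

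Il2ra and Il2rb were found together less often than the product in 5 of 23 gates and runs and more often in none. In the resting Rag/Ptcra gate they shared 0.851% (0.343% to 1.74%) of cells in run 2 and 0.212% (0.0257% to 0.765%) in run 3, with products of 2.23% and 1.07%. The Cpa3 gate gave 0.551% (0.309% to 0.907%) and 0.249% (0.0679% to 0.637%), with products of 0.912% and 1.07%, and the last of the 5 was the Kit/Flt3/Cd34 gate of run 3 (0.481%, product 2.75%). In the Trac gate the values met, at 1.59% with a product of 1.496% in run 2 and 0.576% with a product of 0.706% in run 3. Without thinning, 3.48% (2.34% to 4.96%) of 833 resting Rag/Ptcra cells with Il2ra in run 3 had Il2rb, against 20.9% (13.9% to 29.4%) of 115 without Il2ra, at median depths of 7214 and 6814 UMIs. Cells of the mature programmes made up 17.5% and 9.81% of this gate in runs 2 and 3, and their part in this pattern was not tested. The shares of cells with Il2rb among those with and without Il2ra were 4.64% and 13.3% in run 2 and 0.920% and 0.508% in run 1.

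Il7r was found with Il18r1 more often than the product in 9 of 23 gates and runs, in the Trdc gate in 5.05% (3.498% to 7.01%) and 6.05% (4.27% to 8.28%) of cells of runs 2 and 3, with products of 1.74% and 2.19%. Inside the Trdc gate the pair stayed above its product in cells with neither programme, at 3.43% (product 0.857%) and 2.02% (product 0.724%), and in type 17 cells of run 3 (29.0%, product 17.5%), while the interval held the product in type 17 cells of run 2 (13.4%, product 10.7%) and in NK receptor cells of both runs. In Trac gate cells of the type 17 programme the pair was found in 34.0% and 50.5% of cells, close to its products of 31.9% and 49.3%. Il7r with Il2rb lay above the product in 8 of 23 and below it in 1, the Trac gate of run 2 (24.8%, product 27.3%). Inside the NK receptor programme the pair met its product in both runs, at 28.6% (product 30.0%) and 44.5% (product 46.1%). Il18r1 and Il18rap, the chains of the IL-18 receptor, shared 2.41% and 5.48% of Trac gate cells (products 2.31% and 5.93%) and exceeded the product in 3 of 23 gates and runs. By full combination, Il2ra alone was found in 30.1%, 32.1% and 34.6% of resting Rag/Ptcra cells of runs 1, 2 and 3 and Il2ra with Il2rg in 9.46%, 9.72% and 9.34%. Il7r with Il2rb was the most frequent combination in Trac gate cells of the NK receptor programme, in 10.5% and 14.2%.

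**Figure D4:**
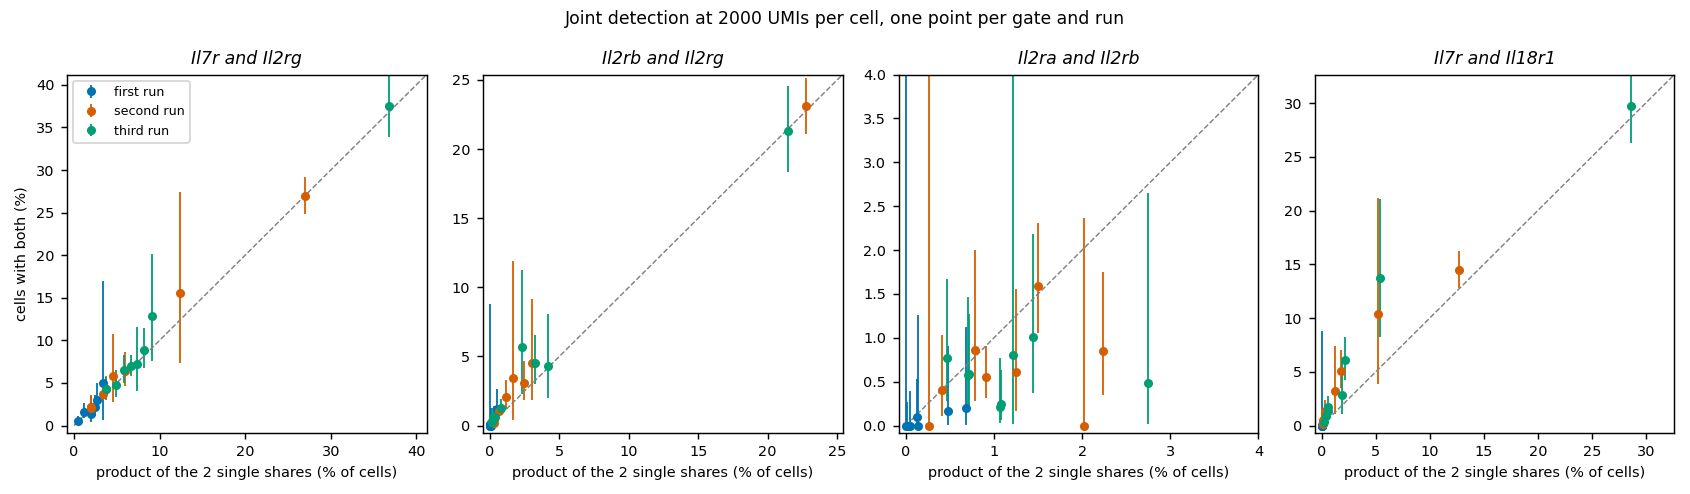
Share of cells with a UMI of both subunits (vertical axis, % of cells, with exact binomial 95% intervals) against the product of the 2 single shares (horizontal axis, % of cells) at 2000 UMIs per cell, for 4 pairs, with 1 point per gate and run, colour for the run and a dashed line where both are equal; intervals that pass the top of a panel are cut there. Il7r with Il2rg follows the line, its intervals holding the product in 23 of 23 gates and runs, whereas Il2ra with Il2rb lies under it beyond the interval in 5 of 23.

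A list of 31 genes of the same pathways was described by counts. Between the Trac and Trdc gates 15 of 29 genes tested were higher and 3 lower (22.3% and 20.4% of all genes), with a median log2 fold change of 0.76 over the list and 0.02 over all genes. Those higher included Cish, a STAT5 target (log2 fold change 1.60; 12.1 and 14.2 CPM in the Trdc gate and 22.5 and 38.5 CPM in the Trac gate of runs 2 and 3). Jak3, the kinase bound to the gamma chain (1.31), Il4ra, which pairs with that chain (1.34), Crlf2, which pairs with the Il7r product for TSLP (1.24), and Myd88 (1.17) were higher as well. Stat5a was lower, at -1.12, and Stat5b at -0.52. Il18 was called lower with no UMI in the Trac gate of either run against 8 and 4 UMIs in the Trdc gate, so no fold is given.

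Between the Trdc and the resting Rag/Ptcra gate 7 of 29 list genes were higher and 4 lower (14.3% and 11.7% of all genes), with a median of -0.15 over the list. Il1r1, a type 17 gene of the IL-1 receptor family (log2 fold change 2.15), Il4ra (1.23), Irak2 (1.18), Jak3 (0.82), Crlf2 (0.55) and Jak1 (0.38) were higher, as was Il15, with 2, 8 and 3 UMIs in the Trdc gate and 0, 2 and 1 in the resting gate of runs 1, 2 and 3. Il18bp, the IL-18 binding protein (-1.52), Socs3 (-0.95), Stat5a (-0.50) and Irak1 (-0.38) were lower. In the cycling against the resting gate none rose and 13 fell as shares of UMIs (16.9% and 16.7% of all genes). Among them were Cish (-1.499), Socs3 (-1.22), Bcl2, a survival gene (-0.81), Pim1 (-0.73) and Socs1 (-0.72). The median over the list was -0.42 there, against -0.08 over all genes. From the Cpa3 and Rag/Ptcra gate to the resting gate 4 rose, led by Il18bp (1.37) and Socs3 (1.15), and 4 fell, among them Socs2 (-1.33) and Il4ra (-0.996), where 9.96% of all genes rose and 11.6% fell. From the Kit/Flt3/Cd34 to the Cpa3 gate the lowest adjusted p of the 29 genes was 0.0575, for Stat5a. In the NK receptor against the type 17 programme 6 of 25 were higher, led by Bcl2 (2.88), Il21r (1.72) and Il4ra (1.30), and Socs3 alone was lower (-2.41), against 8.9% and 7% of all genes.

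The genes most like each member over the 23 sums, by Pearson correlation of log2(CPM + 1) centred within runs, are a description of sums that share cells' libraries. For Il2ra they were Myl10 (0.988), Hes1, a Notch target (0.982), and Spint2 (0.975). For Il7r they were Gm26740 (0.949), F2r (0.940) and Id2, an inhibitor of E proteins (0.937). For Il2rb they were Shisa5 (0.961), Nt5e (0.957) and Gimap4 (0.957), and for Il2rg Fxyd5 (0.973), Tecpr1 (0.969) and Bscl2 (0.967). Il18r1 had Adgrg5 (0.969), Actr2 (0.959) and the chemokine receptor Cxcr6 (0.956), and Il18rap had Ly6c2 (0.951), Cd40lg (0.943) and Slamf7 (0.934). For Il15ra, with few counts, they were Gm6133 (0.784), mt-Co3 (0.782) and Rps19 (0.736). Between members the correlation was highest for Il2rb with Il18r1 (0.896) and for Il7r with Il2rg (0.875), and lowest for Il2ra with Il18rap (-0.771).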

How the data were processed

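All 3 deposited 10x 3′ single-cell libraries of sorted thymocytes, 1 per run, were analysed. The authors deposited raw UMI counts per gene and cell, aligned to mm10 with Cell Ranger (4.0.0 in the header of run 3), and the submitters' processing notes also name R 3.6.3 and Seurat 2.3. Depth was 39947415, 52797915 and 98533329 UMIs per library, and the number of cells in a gate sets the precision of its values. The 7 members and the gene lists were chosen with earlier results of these data known.

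Cells were kept at 500 to 5000 genes and up to 7% mitochondrial UMIs and gated by non-member genes. The TCR gates needed 3 or more UMIs and at least 0.5 per 1000 UMIs of Trdc or Trac. B cells were set aside by at least 3 of 6 B cell genes and myeloid cells by at least 3 of 8. Cells without a gate, and those over both TCR limits, entered no comparison. The type 17 list includes 1 gene that is not reported here. Counts were summed per gate and run (at least 20 cells) and tested with edgeR 4.0.16 (quasi-likelihood, TMM, filterByExpr, gate genes not tested) under R 4.3.3, with the run as a block. This block rests on the design, since gates of a run came from the same library. A fit over 23 sums of 8 gates gave 5 comparisons and a fit over 7 sums of the programmes gave the last. On simulated counts, the Trdc against resting Rag/Ptcra comparison recovered 78 of 96 genes changed by 1 on the log2 scale and 97 of 99 changed by 2, with 8 false among 183 calls over 11083 genes. The programme comparison recovered 55 of 96 and 89 of 98, with 5 false among 149 calls over 10554 genes. The simulation gave all genes the median dispersion and each run the same effect in every gate. It thus does not cover differences between gates that change by run.

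For shares, cells were thinned to 2000 UMIs, which left out 48 shallower cells of run 3 and 0 of the others. Intervals are exact binomial or Poisson at 95%. Scrublet (scanpy 1.11.5) called 0, 463 and 296 doublets, and since it called none in run 1, doublets were kept and the 8% of cells with the highest score in each run were removed in an alternative. Named genes were the members, the 31-gene list by counts with values for called genes, and the 3 genes most like each member among those at 20 CPM or more. Alternatives were RLE size factors, DESeq2 1.42.0, no filter, no block, leaving out each run, TCR limits of 6 UMIs and 1 per 1000 or 2 UMIs and 0.25 per 1000, 3 programme genes, a mitochondrial limit of 5%, 50 cells per sum, at least 3000 UMIs per cell, thinning to 4000 UMIs or none, and, added after seeing the data, stage gates without programme cells.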

Additional observations from a re-analysis of the deposited data

Results flagged for a closer look

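In 2 groups of run 3 cells outside the limits on cells, all 7 members stood above what a count of 0 allows (0.161 and 2.08 CPM). A further group, 199 cells under 500 genes, had no Il15ra UMI, which allows up to 20.9 CPM. Its other members were Il7r at 299 CPM, Il2ra at 55.6 CPM, Il2rb at 250 CPM, Il2rg at 160 CPM, Il18r1 at 146 CPM and Il18rap at 48.7 CPM. The 552 cells with over 5000 genes had Il7r at 147 CPM, Il2ra at 194 CPM, Il2rb at 13.9 CPM, Il2rg at 77.1 CPM, Il15ra at 5.79 CPM, Il18r1 at 16.1 CPM and Il18rap at 3.59 CPM. The 607 cells with 500 to 5000 genes but over the mitochondrial limit had Il7r at 443 CPM, Il2ra at 267 CPM, Il2rb at 87.8 CPM, Il2rg at 172 CPM, Il15ra at 20.8 CPM, Il18r1 at 86.5 CPM and Il18rap at 35.3 CPM. These cells entered no comparison.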

How the results depend on the processing

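Counts of genes called in the 6 comparisons stayed within 1.5 times under RLE size factors, a mitochondrial limit of 5%, doublet removal, 50 cells per sum, at least 3000 UMIs and the looser TCR limits. Without filtering, the Cpa3 against Kit/Flt3/Cd34 comparison called 630 genes in place of 288, and without programme cells in the stage gates 157. The programme comparison called 834 in DESeq2 and 728 with the stricter TCR limits, in place of 1726. Removing 1 run left 1152 to 2976 genes for Trdc against resting Rag/Ptcra (2979 with all), 2276 to 4587 for Trac against Trdc (4902), 49 to 416 for Cpa3 against Kit/Flt3/Cd34 (288), 951 to 2576 for resting Rag/Ptcra against Cpa3 and Rag/Ptcra (2478), 2022 to 2999 for cycling against resting (3858), and 1668 without run 1 for the programmes, whose test could not be run without run 2 or 3. Il18rap between the Trdc and resting gates turned from -0.12 to 1.82 without programme cells, and no member difference called with all cells changed sign in any alternative, although uncalled differences near 0 did; the alternative's construction removes Il18rap-bearing cells from 1 side only.

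With no replicate block, the counts fell to 278, 1208, 1, 212 and 264 in the 5 comparisons of the gates (in the order above) and 0 for the programmes (edgeR; 763 at an unadjusted p under 0.05), and 18 of the member calls were lost, since the differences between runs then entered the error. The Trac against Trdc calls for Il7r, Il2ra, Il2rb and Il2rg and the Il2ra call between the Trdc and resting gates held there too. DESeq2 lost 9 member calls and made no new one; beside those given above these were Il18r1 in resting against Cpa3 and Rag/Ptcra (adjusted p = 0.392) and Il18r1, Il2rb and Il2ra in cycling against resting (0.155, 0.129 and 0.0754). The Il2ra call there was also lost at a mitochondrial limit of 5% (0.0565) and at 3000 UMIs (0.0891), Il2rb there at 3000 UMIs (0.0577), Il18rap in Cpa3 against Kit/Flt3/Cd34 at 50 cells (0.0546), and Il18rap between programmes at 3000 UMIs (0.0694) and the stricter TCR limits (0.237). Il15ra between the Trdc and resting gates passed in 5 alternatives. RLE size factors and doublet removal changed no member call. Without the filter 5 member calls were added. Depth limits Il15ra, at a median of 4.90 CPM, and Il18rap outside the Trac gate. Shares depend on the depth they are thinned to: without thinning 132 single and 310 joint shares moved beyond their interval (29 and 219 did not), and at 4000 UMIs 100 and 192.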
